A study of Homo sapiens with 6 samples.

Results

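Accessible chromatin was compared between 4 h and 2 h of camptothecin in SLFN11-knockout CCRF-CEM cells. The comparison rests on 2 of the 6 libraries of the series, the list coded CB45_KO_4 for 4 h and the list coded CB45_KO_2 for 2 h, taken as merged peaks on chromosomes 1 to 22 and X. Of the 32037 regions called in any of the 6 lists, 23400 were called in at least 1 of these and 15709 in both. CCRF-CEM is an established human T lymphoblast leukaemia line. Knockout cells carried a disrupted SLFN11 gene and received 100 nM camptothecin for 4 h, 100 nM for 2 h, or DMSO, the solvent. Parent cells, labelled wild-type, received the same 3 treatments, and these libraries serve here only to show where else a region was called and how high it was. The labels name a single knockout line, so a property of that line and the loss of SLFN11 cannot be told apart. With 1 library in each group there is no replicate check of any difference, and no test was run.

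Camptothecin traps topoisomerase I on DNA after the enzyme has cut a strand, and replication forks that run into the trapped enzyme stall or break. SLFN11 is known to be drawn to such stressed forks through the single-strand binding protein RPA, to block further replication and to open chromatin around sites of initiation and at promoters. In the assay used, ATAC-seq, a transposase inserts adapters where DNA is free of nucleosomes, and a pile of reads called as a peak marks an accessible promoter, enhancer or other open site. Cells without SLFN11 are known to tolerate camptothecin better. The pair of times asks how accessibility differs between the later and the earlier time of exposure where SLFN11 is absent.

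The placement of the files needs to be read before the values. The code in the name of every peak file matched the code in the bracket of exactly 1 sample title (6 of 6 files), and the entries inside carried the same code (6 of 6). None of the 6 files, however, is recorded under the sample whose title holds its code. By the recorded samples the pair compared here would be 2 h of camptothecin against DMSO, and the recorded 4 h and 2 h lists would be the files coded CB45_KO and CB45_KO_4. Conditions below follow the codes. Values under the recorded samples are given for main counts and medians whose direction depends on them, and not for every comparison or single peak. SLFN11 and other genes were not located, nor were T cell markers checked, because the peaks are on hg19 and an annotation of that build was not used here.

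The number of reads behind each list is unknown, since the files give peaks only. The 4 h list held 25533 entries and the 2 h list 28251, which merged into 19167 and 20894 peaks. Peaks covered 7.79 Mb at 4 h and 9.09 Mb at 2 h, with median widths of 352 bp and 381 bp. The lowest local background of a list, which grows with the number of reads and the length they are extended to, was 1.36 at 4 h and 1.37 at 2 h, against 1.27 in the knockout DMSO list. The number of reads piled up at the summit, recovered from the deposited fold enrichment and p, had a median over merged peaks of 18 at 4 h and 20 at 2 h. No peak of either list had fewer than 8. Intervals below are 95% intervals and cover counting error only, since neighbouring peaks are not independent and PCR-amplified reads are not independent molecules.

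The knockout 4 h list held fewer called peaks than the 2 h list, by a log2 ratio of -0.12 (Wilson interval -0.15 to -0.10). Of the 2 h peaks, 5007 met no peak of the 4 h list, which is 24% (Wilson interval 23.4 to 24.5%). Of the 4 h peaks, 3166 met no 2 h peak, 16.5% (16.0 to 17.1%). Both shares, 24% and 16.5%, are the background against which counts of missing and added peaks are read below. With both lists shortened to equal length the shares were 19.1% added and 19.8% missing. Among peaks with a -log10 q of at least 5, searched in the full other list, 6.24% were added and 10.7% missing. Under the recorded samples the log2 ratio turns to 0.01, with 3941 missing and 4131 added peaks. The same kind of turnover separated other pairs of knockout lists, which share libraries with this one. From DMSO to 2 h 16.5% of peaks were missing and 23.1% were added, and from DMSO to 4 h 21.4% were missing and 20.6% added. By the codes, the number of knockout peaks was thus highest at 2 h and about equal at 4 h and DMSO. The log2 ratio of 4 h over DMSO was -0.01 (-0.04 to 0.02). The recorded samples would place 20894 peaks in DMSO, 19167 at 2 h and 19289 at 4 h. The number would then be highest without the drug.

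Most of the peaks that came and went were weak. Peaks added at 4 h had a median width of 194 bp and a median summit pileup of 12 reads, against 398 bp and 20 reads for 4 h peaks also called at 2 h. Peaks missing at 4 h had a median width of 212 bp and a median pileup of 12 reads, against 456 bp and 24 reads for 2 h peaks still called at 4 h. Among 4 h peaks in the lowest quartile of fold enrichment within that list, 38.1% (36.8 to 39.5%) were added, and in the highest quartile 0.877% (0.649 to 1.18%). Among 2 h peaks the lowest quartile lost 55.1% (53.8 to 56.5%) and the highest 0.938% (0.710 to 1.24%). A peak with more than 1 summit was seldom lost. Of 2 h peaks with 2 summits 4.16% were missing at 4 h, and with 3 or more 0.921%, against 30.9% of those with 1.

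**Figure D1:**
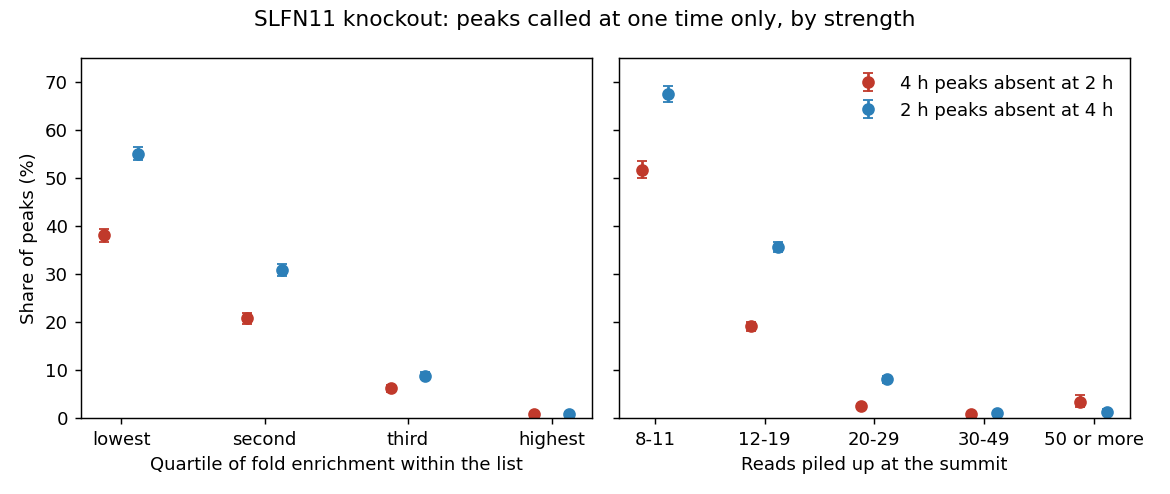
Share of knockout peaks called at only 1 of the times, by quartile of fold enrichment within the list that holds them (left) and by reads at the summit (right). Points are shares, bars are Wilson 95% intervals for counting error, red is 4 h peaks absent at 2 h and blue is 2 h peaks absent at 4 h. Shares fall from 38.1% and 55.1% in the lowest quartile to under 1% in the highest, and are higher again for added peaks of 50 or more reads (3.41%).

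Strong peaks that differed were mostly narrow at 4 h, and their median local background was high. Among 4 h peaks with 50 or more reads at the summit, 30 of 881 were added (3.41%, 2.40 to 4.82%), a larger share than the 0.798% (0.537 to 1.18%) among those with 30 to 49 reads. Of these 30, 19 were no wider than 170 bp and 9 were called in no other library. Their median local background was 31.9 reads, against 6.03 for 4 h peaks of the same height that were also called at 2 h. On the 2 h side 21 of 1586 such peaks were missing (1.32%, 0.868 to 2.02%). Of these 21, 10 were no wider than 170 bp and 1 was called in no other library. Their median width was 185 bp and their median local background 32.9 reads, against 711 bp and 5.74 for 2 h peaks of that height still called at 4 h. Within 2 Mb of the widest stretch of their chromosome that holds no entry in any list lay 11 of the 30 and 6 of the 21. Among shared peaks that share was 9.42% at a geometric mean pileup of 50 to 100 reads and 41.8% at 100 or more. The part of local background or of position in these calls was not tested.

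The added peak of highest fold enrichment was a 130 bp peak at chr7:45291577-45291706, with 673 reads at its summit at 4 h. It was called neither at 2 h nor in any of the other 4 lists. Next came chr9:44070663-44070794, with 154 reads at 4 h, called elsewhere only at 125 reads in the parent 2 h list, and chr16:35239602-35239730, with 152 reads at 4 h and 88 in the parent 4 h list. Local background at 4 h was 10.5 reads at the peak on chromosome 7, 3.85 on chromosome 9 and 4.46 on chromosome 16. These values lie below the median of 31.9 among the 30 strong added peaks. The peak on chromosome 16 lay within 2 Mb of the widest stretch of its chromosome that holds no entry in any list. Among the 10 added peaks of highest fold, 3 lay so. Of the 10 added peaks of highest fold, 6 were no wider than 170 bp and 2 were called in the knockout DMSO list. Wider added peaks were lower. The 10 highest of at least 300 bp ran from 7.09-fold to 7.55-fold over background, with 16 to 44 reads.

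At chrX:101854157-101854662, a 506 bp peak, the 4 h library had 20 reads and the 2 h library no peak. The knockout DMSO library had 11 reads there, and the parent libraries 14 at 2 h and 18 at 4 h, with no peak in parent DMSO. At chr2:115399787-115400131 there were 16 reads at 4 h, no peak at 2 h and 17 reads in knockout DMSO. Parent cells had 18 reads there in DMSO and 12 at 2 h, with no peak at 4 h. At chr5:145945425-145945779 the 4 h library had 16 reads and no other library a peak. Over all 4 h peaks, 19.1% of those with 12 to 19 reads and 2.52% of those with 20 to 29 reads were absent from the 2 h list.

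Wide peaks missing at 4 h had 19 to 44 reads at 2 h. The highest of at least 300 bp was chr14:105451941-105452359, 419 bp wide. It had no peak at 4 h, 44 reads at 2 h and 37 in knockout DMSO. In parent cells the same site had 29 reads in DMSO, 73 at 2 h and 94 at 4 h. It was thus called in every library except the knockout at 4 h, and in parent cells its pileup was highest at 4 h. The peak at chr9:34665201-34665553 had no call at 4 h and 27 reads at 2 h, with 20 in knockout DMSO. In the parent it had 30 reads at 2 h and 43 at 4 h, and no call in DMSO. At chr19:9731801-9732214 the 4 h library had no peak and the 2 h library 21 reads, with 10 in knockout DMSO. Parent pileups there were 9 in DMSO, 20 at 2 h and 39 at 4 h. Of the 10 wide missing peaks named by rank, 9 were called in knockout DMSO and 9 in the parent 4 h list, against 36.5% and 47.3% of all missing peaks, and 89.6% and 89.8% of 2 h peaks kept at 4 h. Of the 10 wide added peaks, 5 were called in knockout DMSO and 3 in the parent 4 h list, against 29.4% and 33.8% of all added peaks.

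Of the missing peaks, 1498 were called at 2 h in the knockout and in no other list. The one of highest fold was chrX:61881320-61881552, 233 bp wide with 66 reads at 2 h and no call in the other 5 libraries. A wider example was chr3:147034955-147035498, 544 bp, with 19 reads at 2 h. Of the 32037 regions, 11070 were called in all 6 lists. Regions called in every list but knockout 4 h numbered 359, and those called in every list but knockout 2 h numbered 113. The corresponding number for knockout DMSO was 247. Over all peaks, 24% of the 2 h list were missing at 4 h and 16.5% of the 4 h list were added. Under the recorded samples 247 regions would be called in every list but knockout 4 h and 359 in every list but knockout 2 h, so the order turns. The one of highest fold among the 113 was chr14:80194826-80195100, with 18 reads at 4 h and none called at 2 h, 10 in knockout DMSO, and 10, 12 and 9 in parent DMSO, 2 h and 4 h.

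The knockout DMSO list showed which of the differing regions were called without the drug. Of the peaks added at 4 h, 931 (29.4%, 27.8 to 31.0%) were called in DMSO, against 89.3% of 4 h peaks shared with 2 h. Of the peaks missing at 4 h, 1826 (36.5%, 35.1 to 37.8%) were called in DMSO, against 89.6% of the shared ones. Under the recorded samples DMSO held 45.2% of added and 43.3% of missing peaks, which turns the order of these shares. Over regions of all 3 knockout lists, 14141 of 25533 (55.4%) were called in each. Another 2994 regions were called at 2 h only and 2102 at 4 h only. The DMSO list alone held 2133, so each library had a set of its own. A region shared by 2 h and DMSO and lacking at 4 h was found 1738 times, and a region shared by 4 h and DMSO and lacking at 2 h 857 times. Under the recorded samples 1568 such regions would lack at 4 h and 1738 at 2 h. Regions called at 2 h only would then number 2102 and those at 4 h only 2133. Both orders thus turn with the placement.

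**Figure D2:**
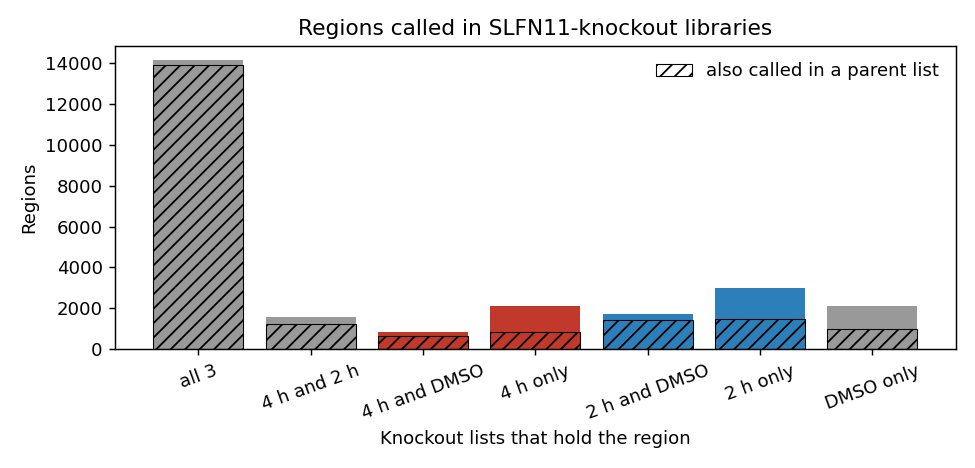
Number of regions by the knockout lists that hold them. Red bars are regions called at 4 h and not at 2 h, blue bars those called at 2 h and not at 4 h, grey bars the rest, and hatching marks regions also called in at least 1 parent list. All 3 lists share 14141 regions, 2102 are seen at 4 h only, 2994 at 2 h only and 2133 in DMSO only.

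Many of the differing regions were also called in parent cells. A parent list held 53.2% of the added peaks (51.4 to 54.9%) and 64.0% of the missing ones (62.7 to 65.3%), against over 96% of shared peaks in each direction (96.2% and 96.3%). Of added peaks 39.7%, and of missing peaks 29.9%, were in no other list. Peaks lost in knockout cells were also lost more often in parent cells. Of the 2746 missing peaks that the parent 2 h list held, 26.3% (24.6 to 27.9%) were not called in the parent 4 h list. For peaks that the knockout kept the share was 6.06% (5.69 to 6.45%), and over all parent 2 h peaks 20.9%. The missing peaks were also the weaker ones, and a comparison at equal strength was not made.

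Levels were compared at 15502 peaks that met exactly 1 peak of the other list. Their summit pileup was lower at 4 h than at 2 h in 10742 (69.3%), equal in 887 and higher in 3873 (25.0%). Medians were 20 reads at 4 h and 24 at 2 h. The median log2 ratio was -0.23, while the ratio of the lowest backgrounds of the lists was -0.01 on the same scale. Dividing by those backgrounds gave a median of -0.22. Peaks were also narrower at 4 h in 62.7% of pairs, with medians of 400 bp at 4 h and 455 bp at 2 h. For comparison, the ratio of 2 h over DMSO in knockout cells had a median of 0.17 and that of 4 h over DMSO -0.05, while the lowest backgrounds differed by 0.11 and 0.10. These pairs share the 2 h or the 4 h library with the main one. Under the recorded samples the median of 4 h over 2 h is 0.05, and that of 2 h over DMSO is -0.23.

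The shift was not the same at all heights. Peaks were grouped by the geometric mean of both pileups. Only pairs called at both times enter. Of peaks with 8 to 11 reads, 67.6% at 2 h and 51.9% at 4 h met no peak of the other list. Ratios in the weakest class lack those peaks. The median log2 ratio was -0.12 below 15 reads, -0.23 from 15 to 25, -0.30 from 25 to 50 and -0.24 from 50 to 100 reads. In the 292 peaks of at least 100 reads it was 0.05, and 33.6% of them were lower at 4 h, against 79.9% in the class below. These highest peaks had a median local background of 46.9 reads, against 5.74 in the class below, and a median width of 390 bp against 757 bp. Within 2 Mb of the widest stretch of their chromosome that holds no entry in any list lay 41.8% of them, against 3.43% of all shared peaks. Relative to this class the median over all shared peaks was -0.28.

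**Figure D3:**
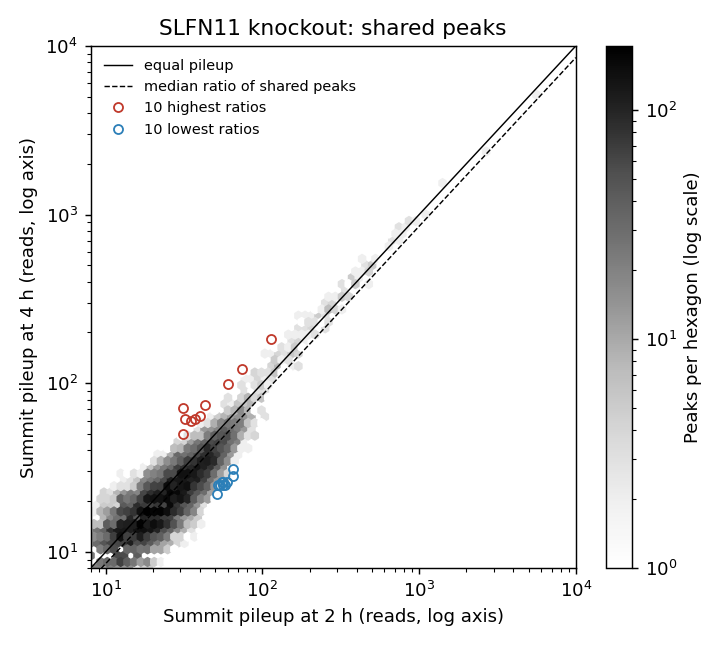
Reads at the summit of shared peaks in the knockout libraries, 4 h on the vertical axis and 2 h on the horizontal axis, both logarithmic. Grey hexagons count peaks, the solid line is equality, the dashed line the median ratio (-0.23 on the log2 scale), and circles mark the 10 highest (red) and 10 lowest (blue) ratios among peaks with at least 50 reads at 1 of the times. The bulk lies below equality and the highest peaks, above 100 reads, lie close to it.

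Few peaks called at both times departed far from the common shift. A weak peak that fell or rose far could be called at 1 time only, and it is then not counted here. Among 2 h peaks of 8 to 11 reads 67.6% were missing at 4 h, and among such 4 h peaks 51.9% were added. The part of this limit in the counts and in their balance was not tested. Measured from the median ratio, 123 of 15502 were at least 2-fold higher at 4 h (0.793%) and 61 at least 2-fold lower (0.393%). Under the recorded samples 86 were higher (0.583%) and 91 lower (0.617%), so the balance between the directions turns. By the codes, the higher ones had medians of 21 reads at 4 h and 11 at 2 h, and the lower ones 12 and 30. Of the 1595 shared peaks with at least 50 reads at 1 of the times, 4 were past 2-fold above the median and none past 2-fold below it, with a range from -0.99 to 1.42 around the median.

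The shared peaks with the lowest ratios of 4 h over 2 h in the knockout are described first. At chr14:23025027-23025904 the knockout had 28 reads at 4 h and 65 at 2 h, a log2 ratio of -1.22 (exact conditional binomial interval -1.91 to -0.56), with 45 reads in DMSO. The parent libraries had 30 reads in DMSO, 82 at 2 h and 107 at 4 h. At chr12:100660496-100661309 the knockout had 25 reads at 4 h and 58 at 2 h, with 41 in DMSO. Parent pileups were 29 in DMSO, 69 at 2 h and 95 at 4 h. At chr3:42641795-42642423 the knockout had 22 reads at 4 h and 51 at 2 h, with 44 in DMSO, whereas the parent had 40 in DMSO, 74 at 2 h and 109 at 4 h. A similar order was seen at chr1:154192682-154193443, where the knockout had 26 reads at 4 h, 59 at 2 h and 44 in DMSO. The parent libraries there had 22 reads in DMSO, 65 at 2 h and 100 at 4 h.

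Over the 10 lowest ratios, knockout pileups ran from 22 to 31 reads at 4 h and from 51 to 65 at 2 h, a gap that the choice of peaks fixes. Knockout DMSO pileups ran from 27 to 51 reads. Parent pileups were higher at 4 h than at 2 h in 9 of 10, with 69 to 130 reads at 4 h and 57 to 99 at 2 h. Among all 1473 peaks of at least 50 knockout reads called in every list, 1135 (77.1%) were higher at 4 h in the parent, so a count of 9 of 10 is near the background. Parent DMSO pileups of the 10 ran from 20 to 40 reads. The exception was chr3:3840375-3841610, where the parent libraries had 69 reads at 4 h and 71 at 2 h.

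The highest ratios formed a different set. Of these 10 peaks, 3 lay within 2 Mb of the widest stretch of their chromosome without an entry, against 0 of the 10 lowest. Over the 1473 peaks the share was 11.6%. The peak on chromosome 14 named next is among the 3. Local background at 4 h was 12.5 reads there and 15.3, 4.80 and 9.72 at the peaks on chromosomes 2, 20 and 4 below. The part of position or background in these ratios was not tested. At chr14:19010384-19010609 the knockout had 71 reads at 4 h and 31 at 2 h, a difference of 1.42 on the log2 scale from the median ratio, with no call in DMSO. The parent had 53 reads in DMSO and no call under the drug. At chr2:162138638-162139026 the knockout had 61 reads at 4 h, 32 at 2 h and 61 in DMSO, and the parent 58 in DMSO, 37 at 2 h and 54 at 4 h. Here the 2 h libraries of both genotypes were low. Pileups at chr20:48233989-48234289 were 99 reads at 4 h, 60 at 2 h and 79 in DMSO for the knockout, and 55 reads at 4 h, 48 at 2 h and 78 in DMSO for the parent. At chr4:190943194-190943916, near the end of the long arm, the knockout had 122 reads at 4 h, 74 at 2 h and 82 in DMSO, and the parent had 49 reads at 4 h, 77 at 2 h and 83 in DMSO. Of these 10 parent sites, 9 were called at both times and 4 were higher at 4 h than at 2 h, against the same 77.1% of the 1473 peaks. All 20 of these intervals, in both directions, excluded 0, but the peaks were picked for their ratios from 1595, so the intervals describe counting error and are no test.

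Over all shared peaks, the median ratio in the parent had the other sign. Across the 18069 peaks shared by the parent lists, the pileup was higher at 4 h in 59.5% and lower in 36.1%, with a median log2 ratio of 0.14, against -0.23 in the knockout. The lowest backgrounds of the parent lists differed by -0.04 on this scale. By class of pileup, the parent medians were -0.13 below 15 reads and -0.08 from 15 to 25. They were 0.11 from 25 to 50, 0.36 from 50 to 100 and 0.35 from 100 reads. The sign was thus that of the knockout below 25 reads and from 100 reads, and differed between. The parent and knockout comparisons share no library. For 10313 peaks with a single counterpart in every list, knockout peaks were divided into 5 groups of nearly equal size by their ratio. Knockout medians of the groups follow from this division. The group with the lowest knockout ratios had a median of -0.72 in the knockout and 0.30 in the parent, where 73.9% were higher at 4 h. The next groups had parent medians of 0.31, 0.24 and 0.17. The group with the highest knockout ratios, with a median of 0.22 in the knockout, had a parent median of 0.00, and 49.8% of its peaks were higher at 4 h in the parent.

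Across these 10313 peaks the knockout ratio and the parent ratio had a Pearson r of -0.19 and a Spearman rho of -0.19, given as a description, since peaks share their libraries. The r was -0.14, -0.16, -0.16, -0.35 and -0.30 in the classes of rising pileup, from below 15 to at least 100 reads. Among the 1473 of these peaks with at least 50 knockout reads, 116 lay at least 0.5 below the median knockout ratio, and their parent pileups were higher at 4 h in 105 (90.5%). In the knockout their median pileup was 31 reads at 4 h and 56 at 2 h, a gap that the choice of peaks fixes. Their parent medians were 105 reads at 4 h and 76.5 at 2 h. Another 78 lay at least 0.5 above it, and 34 of them (43.6%) were higher at 4 h in the parent. For these 78 the knockout medians were 81.5 reads at 4 h and 60 at 2 h, again fixed by the choice, and the parent medians 98.5 and 94.5. Over all 1473 the share higher at 4 h in the parent was 77.1%. Local background moved with the split, with medians of 4.67 reads in the 116 and 7.12 in the 78, and 2.59% and 38.5% of them lay within 2 Mb of the widest empty stretch. The part of either in the split was not tested.

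**Figure D4:**
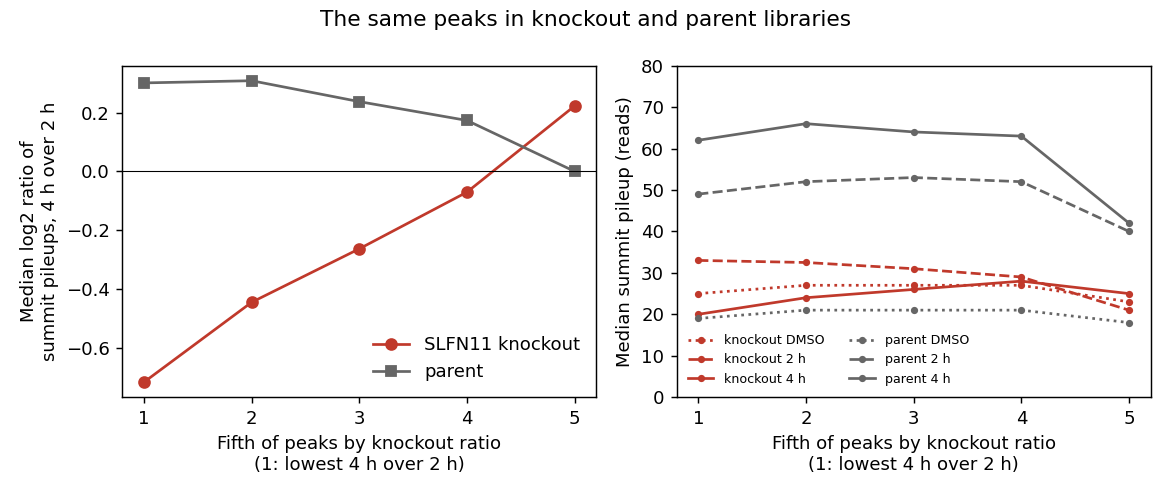
Peaks with a single counterpart in all 6 lists, in 5 groups by their knockout ratio of 4 h over 2 h, from lowest (1) to highest (5). The left panel gives the median log2 ratio in the knockout (red) and the parent (grey), which runs from 0.30 in the first group to 0.00 in the last in the parent. The right panel gives the median reads at the summit in each library (dotted DMSO, dashed 2 h, solid 4 h), with 20 at 4 h in the knockout and 62 in the parent in the first group.

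Chromosomes differed in the size of the shift, and in the knockout all 23 medians were below 0. The lowest median log2 ratio of shared peaks was on chromosome 19, at -0.35 over 795 peaks, followed by chromosome 17 at -0.32 (716 peaks) and chromosome 22 at -0.30 (271 peaks). The highest were on chromosome 4, at -0.15, chromosome X at -0.16 and chromosome 18 at -0.17. In the parent, chromosome 19 had the highest median, 0.46, followed by chromosome 22 at 0.35 and chromosome 17 at 0.34, and chromosome 4 the lowest, -0.05. Chromosomes 17, 19 and 22 are rich in genes, and chromosomes 4, 18 and X poor in them. Together, chromosomes 17, 19 and 22 had a median of -0.33 in the knockout and 0.40 in the parent, and the 20 others -0.22 in the knockout and 0.10 in the parent. The gap was present in each class of pileup, for example -0.37 against -0.28 from 25 to 50 reads and -0.34 against -0.22 from 15 to 25 reads. At 100 reads or more, where the 3 chromosomes held 19 peaks, it was 0.00 against 0.06. By the recorded samples these 3 chromosomes would stand at 0.11 and the others at 0.04 in the knockout.

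**Figure D5:**
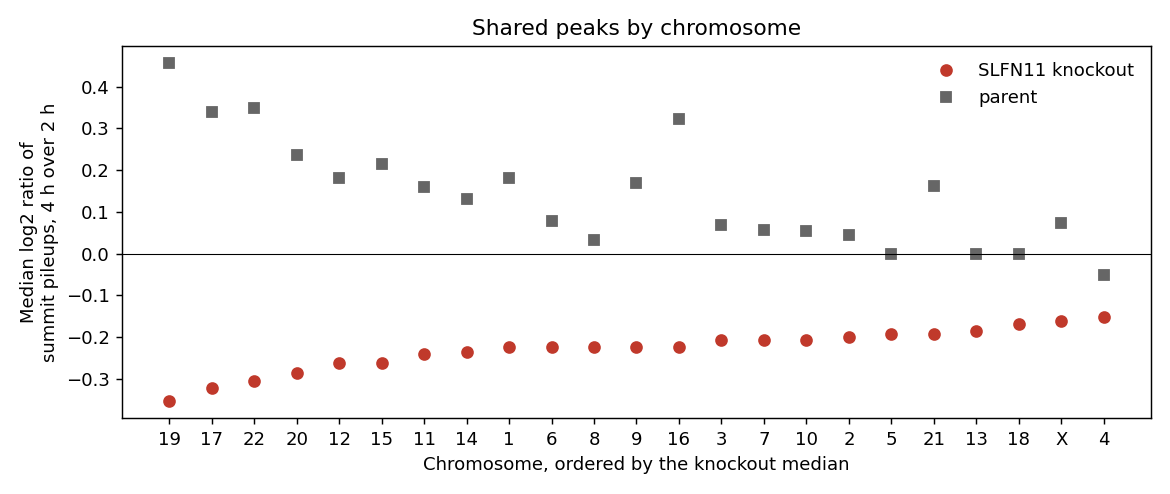
Median log2 ratio of summit pileups, 4 h over 2 h, over shared peaks of each chromosome in the knockout (red circles) and the parent (grey squares), ordered by the knockout median. Chromosome 19 lies lowest in the knockout (-0.35) and highest in the parent (0.46), and chromosome 4 lies highest in the knockout (-0.15) and lowest in the parent (-0.05).

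Added peaks were scarce on the same chromosomes, and also on chromosome 16, whose median log2 ratio of shared peaks in the knockout was -0.22. On chromosomes 17, 19 and 22 together, 204 of 2034 peaks of the 4 h list were added (10.0%, 8.80 to 11.4%), against 17.3% (16.7 to 17.9%) on the 20 others and 16.5% over all. Chromosome 19 had the lowest share of added peaks, 8.76% (7.08 to 10.8%). Chromosome 16, counted among the 20 others, had 11.8% (9.64 to 14.4%), and chromosome 22 had 12.1% (8.97 to 16.2%). Chromosome 18 had the highest, 21.1% (17.2 to 25.6%), and chromosome 4 had 20.3%. Within the lowest quartile of fold enrichment it was 26.7% on the 3 chromosomes and 39.5% on the others. In the next quartile it was 10.7% on the 3 chromosomes, with an interval of 8.30 to 13.6% that lies below the interval of the others, 20.8 to 23.3%. In the highest quartile it was 0 of 410 on the 3 chromosomes, with an upper Wilson bound of 0.928%, against 0.959% on the others. The share of missing peaks was 24.7% on chromosomes 17, 19 and 22 and 23.9% on the others, both close to the 24% over all. Among peaks of at least 300 bp it was 31.0% on the 3 chromosomes and 25.2% on the others. Under the recorded samples the order turns, with 14.1% missing on the 3 chromosomes and 21.3% on the others, and the share added is 19.3% on the 3 chromosomes and 21.7% on the others. By the codes, the 3 did not stand together, since chromosome 22 lost 31.9% of its 2 h peaks (27.5 to 36.6%), the highest share of any, and chromosome 19 lost 21.5%. The lowest share, 20.2% (17.9 to 22.8%), belonged to chromosome 5.

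On a finer scale, differing peaks were spread thinly. A missing peak lay a median of 24619 bp from the nearest 4 h peak, and 6.65% lay within 500 bp of one, while added peaks lay a median of 24793 bp from the nearest 2 h peak. Among 104 windows of 1 Mb with at least 20 peaks at 4 h, the highest share of added peaks was 11 of 21 on chromosome 9, 68000001 to 69000000 (52.4%, 32.4 to 71.7%). The next was 9 of 23 on chromosome 1, 143000001 to 144000000. Both begin within 2 Mb of the widest stretch of their chromosome that holds no entry in any list. Among 150 such windows at 2 h, the highest share of missing peaks was 13 of 27 on chromosome 15, 40000001 to 41000000 (48.1%, 30.7 to 66.0%), followed by 10 of 23 on chromosome 19, 48000001 to 49000000. These windows are the extremes of many, and their intervals are wide. The longest runs were 5 consecutive 4 h peaks added, as on chromosome 1 from 142729432 to 142898335, and 6 consecutive 2 h peaks missing, as on chromosome 16 from 85552947 to 85645826.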

How the data were processed

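ATAC-seq libraries of 6 samples were read from their deposited peak lists. Per the submitters' processing notes the tools were MACS2 2.1.2, Picard 2.9.2, BWA 0.7.17, Trim Galore 0.6.2, SAMtools 1.8 and Trimmomatic 0.39, and the build hg19, with no roles stated. The handling of duplicates, the shift and extension of reads and the model of local background are not stated in the labels, and all of them can move the edges and number of peaks. The score deposited by the authors is, in the knockout lists, 10 times the -log10 q, truncated. As deposited, the ratio column is the fold of summit pileup over local background, and it ranked peaks within a list only. The authors also deposited each entry's -log10 p-value and -log10 q-value, with no q above 0.01. Peaks were called per library, as each list carries 1 code.

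Entries on the mitochondrial genome and chromosome Y (0.580% at 4 h, 0.552% at 2 h) were left out and overlapping entries merged, keeping the highest values. No further filter on regions, such as one for repeated sequence, was applied. Peaks sharing at least 1 bp count as shared. Summit pileup and background were solved from fold enrichment and the Poisson p, with the caller's pseudocount of 1. Pileups were within 0.02 of a whole number for 99.98% of entries at 4 h and 99.99% at 2 h. Overlap, recovery and ratios were tested on simulated data. Python 3.11.15, pandas 2.3.3, NumPy 2.4.6 and SciPy 1.17.1 were used. Coordinates are hg19, counted from 1.

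Named peaks are, from the top, the 10 of highest fold in each direction, the 10 of at least 300 bp, the 10 highest and lowest pileup ratios with at least 50 reads at 1 time, the 5 highest called in all lists but 1 or in 1 alone, and the 5 windows of highest share. Comparisons and lists were chosen with earlier results of these data known, and the pileup classes, the groups by knockout ratio, the split at 0.5 around the median and the widest empty stretch after values were seen. Planned gene lists were not used here, for want of an hg19 annotation. Alternatives changed the threshold, overlap, list length, merging, width and placement of files.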

Additional observations from a re-analysis of the deposited data

Results flagged for a closer look

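The median ratio of summit pileups between 4 h and 2 h over all shared peaks had opposite signs in the 2 genotypes. In the classes of pileup below 25 reads both medians were below 0, and from 100 reads both were above 0. Over shared peaks the median log2 ratio was -0.23 in the knockout and 0.14 in the parent, and on chromosomes 17, 19 and 22 it was -0.33 in the knockout and 0.40 in the parent. With 1 library in each group the difference between genotypes was not tested. By the recorded samples the medians would be 0.05 in the knockout and -1.45 in the parent, also opposite in sign, with each sign turned.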

How the results depend on the processing

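No paired analysis was possible because each group had 1 library. Among recomputed values other than single peaks, 26 stayed within their counting interval, within 1.5 times the main count or, for the median log2 ratio of pileups, within 0.1, 47 moved and 2 turned their sign, both under the recorded samples, and the cause was not tested. All 47 named peaks kept their direction of call with peaks within 500 bp counted as shared, with an overlap of 50% and with entries as deposited.

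With only peaks of a -log10 q of at least 5, 1789 peaks were added and the log2 ratio of peak numbers was -0.18. The knockout DMSO list then held 33.7% of added and 43.1% of missing peaks, and a parent list 63.6% and 76.8%. On chromosomes 17, 19 and 22, 8.07% were added and 26.8% missing, against 13.9% and 22.99% on the others. From the lowest to the highest fold quartile 27.3% and 1.54% were added, and 48.9% and 2.09% missing. Shared peaks 2-fold from the median were 26 higher and 10 lower. Searching the full other list left 843 added (6.24%) and 1630 missing (10.7%).

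With only peaks of at least 300 bp, 1474 were added, the log2 ratio was -0.23, and DMSO held 35.0% of added and 42.0% of missing peaks. The 3 chromosomes then had 31.0% missing and the others 25.2%, with 13.4% added on the others, and 48 shared peaks were 2-fold higher and 23 lower. With an overlap of 50% DMSO held 27.3% of added and 34.7% of missing peaks, and within 500 bp 38.6% of missing ones. With entries as deposited it held 37.9% of missing ones. The 3 chromosomes then had 7.74% added and 19.5% missing, and the others 13.3% and 18.4%.

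Placed by the recorded samples, the log2 ratio of peak numbers was 0.0092, the median log2 ratio of pileups 0.052, and DMSO held 45.2% of added and 43.3% of missing peaks and a parent list 64.4% and 58.7%. The 3 chromosomes had 19.3% added and 14.1% missing, and the others 21.7% and 21.3%. The lowest and highest fold quartiles had 49.01% and 1.22% added, and 45.2% and 1.71% missing. Lists of equal length gave 3664 added (19.1%) and 3802 missing (19.8%). Leaving out peaks within 2 Mb of the widest empty stretch, an alternative chosen after seeing the data, moved no count by over 1.5 times.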
